A study of Mus musculus with 34 samples.

Results

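Wnt proteins, the cell surface receptors that bind them and the secreted proteins that block them were followed as a module of 42 genes in mouse embryonic stem (ES) cells that lack Mta proteins, subunits of the chromatin complex NuRD. The members were taken by name: 19 Wnt ligand genes, 10 Frizzled receptor genes, the co-receptor genes Lrp5 and Lrp6, the alternative receptor genes Ror1, Ror2 and Ryk, and 8 genes for secreted inhibitors. All 42 were among the 48709 genes counted in the triple-mutant libraries and the 22018 genes counted in the single-mutant libraries, 34 libraries of strain 129/Ola in all. Expression is given as CPM, the read count of a gene scaled to a fixed library total after TMM correction, so a fall in CPM can reflect fewer expressing cells or less RNA per cell, which bulk RNA cannot tell apart.

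The 16 triple-mutant libraries hold 4 groups of 4, Control and Mta123KO cells labelled as grown in 2i/LIF (here 2iL) or as kept for 48 h in N2B27 without the inhibitors and LIF. Control is an Mta1 +/∆ Mta3 flox/flox line, so that the controls carry 1 deleted Mta1 allele and floxed Mta3 alleles, and Mta123KO cells are Mta1 ∆/∆ Mta2 ∆/- Mta3 ∆/∆ and were made by Cre from cells that lacked Mta1 and Mta2. Each group was labelled as lines 1 and 2 with 2 libraries each, and values are listed in the order line 1, line 1, line 2, line 2. The 18 single-mutant libraries, all labelled 2i+LIF, hold 3 each of Mta1 del/del and its Mta1 flox/flox parent, Mta3 del/del and its Mta3 flox/flox parent, and Mta2 KO and Mta2 WT. The deletions were made by Cre in the flox/flox cells, Mta2 KO was a primary line of which a single one is listed, and nothing states that the libraries of a group came from separate cultures.

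Libraries held 37855790 to 57602285 gene counts in the triple-mutant set and 13105820 to 40613585 in the single-mutant set. Mta2 ran from 111 to 129 CPM in Control and 4.72 to 9.004 CPM in Mta123KO labelled 2iL, and from 185 to 202 and 6.53 to 10.4 CPM labelled 48 h, and Mta3 and Mta1 were also lower in Mta123KO under both labels, Mta1 without passing the fold threshold. The Cre-deleted Mta1 allele lacks a single exon, so that reads of its other exons are still counted and its level does not check the genotype. In the single mutants Mta2 ran from 9.24 to 11.9 CPM in Mta2 KO against 232 to 247 CPM in WT, Mta3 from 9.65 to 12.8 against 60.6 to 70.5 CPM, and Mta1 from 38.5 to 48.1 against 69.04 to 105 CPM. The culture labels of the triple-mutant set went against the data. Naive pluripotency markers, which ES cells lose when the inhibitors and LIF are removed, were higher in the libraries labelled 48 h: the summed level of 8 such genes was 3679 to 4055 CPM in Control labelled 48 h and 158 to 244 CPM in Control labelled 2iL, and 5 markers of the formative state gave 74.0 to 85.1 and 764 to 1302 CPM. The names of the deposited files also give the opposite culture, so groups are called by their labels throughout. If the labels were exchanged, the Mta123KO comparisons would exchange places and each change with culture would turn its sign.

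Wnt ligands are secreted lipid-modified glycoproteins that bind a Frizzled receptor together with Lrp5 or Lrp6 and so stop Gsk3 from marking β-catenin for destruction, after which β-catenin acts with Tcf and Lef factors on target genes. Other ligands signal through Ror or Ryk receptors without β-catenin. Sfrp proteins and Frzb hold ligands away from their receptors, and Dkk1 and Dkk2 block Lrp5 and Lrp6. In mouse ES cells β-catenin signalling favours self-renewal, and an inhibitor in 2i acts on Gsk3, inside the cell and below all members described here.

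RefSeq promoter windows (GRCm38.p6, 250 bases before to 50 after a start site) were held for 29 of the 42 members, 32 windows in all. They are shown because ligand genes rose together in Mta123KO, and capitals mark CG dinucleotides, the bases read by methyl-CpG-binding and CpG-binding proteins. The first 3 belong to Wnt4 (chr4:137277385-137277684, plus strand), Wnt6 (chr1:74771642-74771941, plus strand) and Wnt7a (chr6:91411304-91411603, minus strand), ligands called in both Mta123KO comparisons.
Wnt4: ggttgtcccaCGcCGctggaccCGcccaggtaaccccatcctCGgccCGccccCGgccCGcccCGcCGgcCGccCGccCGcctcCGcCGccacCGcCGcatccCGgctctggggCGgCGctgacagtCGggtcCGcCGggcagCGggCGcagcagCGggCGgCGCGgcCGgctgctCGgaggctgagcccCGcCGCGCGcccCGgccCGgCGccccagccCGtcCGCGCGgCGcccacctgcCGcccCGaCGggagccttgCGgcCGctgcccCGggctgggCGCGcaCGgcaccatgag
Wnt6: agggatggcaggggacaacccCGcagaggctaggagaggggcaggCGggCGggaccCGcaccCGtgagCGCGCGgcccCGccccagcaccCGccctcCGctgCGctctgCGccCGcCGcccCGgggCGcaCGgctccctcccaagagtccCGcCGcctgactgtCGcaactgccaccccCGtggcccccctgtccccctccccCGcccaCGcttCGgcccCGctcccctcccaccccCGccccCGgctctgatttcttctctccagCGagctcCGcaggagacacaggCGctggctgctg
Wnt7a: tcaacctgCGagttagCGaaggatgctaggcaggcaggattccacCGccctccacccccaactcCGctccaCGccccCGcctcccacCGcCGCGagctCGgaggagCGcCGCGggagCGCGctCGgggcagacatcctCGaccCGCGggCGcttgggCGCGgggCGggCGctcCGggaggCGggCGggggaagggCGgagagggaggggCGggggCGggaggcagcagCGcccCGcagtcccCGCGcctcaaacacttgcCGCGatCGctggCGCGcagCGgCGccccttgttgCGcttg
These windows hold 51, 31 and 42 CG dinucleotides. The median was 43.5 over the 8 windows of the 7 members with a window that were called increased in both Mta123KO comparisons (Wnt3, Wnt3a, Wnt4, Wnt6, Wnt7a, Wnt9a and Wnt11), 23 over the 24 windows of the other 22 members and 7 over all 32851 windows of the table. Since promoters of developmental genes are commonly rich in CG, and since the windows were not chosen at random, these medians are descriptions.

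The strings CTTTGA and CTTTGT, which overlap the sequence that Tcf and Lef factors bind, were searched on both strands. They occurred in 11 of the 32 member windows (34.4%) and in 31.2% of all windows. Both strings were found in the Dkk1 window (chr19:30549447-30549746, minus strand), CTTTGA in the Wnt11 window that lies furthest upstream (chr7:98834862-98835161, plus strand) and CTTTGT in the Wnt3 window (chr11:103773925-103774224, plus strand). These are printed with the matches in capitals.
Dkk1: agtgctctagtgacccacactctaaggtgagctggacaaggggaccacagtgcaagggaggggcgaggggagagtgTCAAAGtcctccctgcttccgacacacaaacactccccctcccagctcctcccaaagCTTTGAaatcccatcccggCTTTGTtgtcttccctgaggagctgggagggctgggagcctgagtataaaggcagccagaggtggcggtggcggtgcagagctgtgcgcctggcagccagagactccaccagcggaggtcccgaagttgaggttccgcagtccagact
Wnt11: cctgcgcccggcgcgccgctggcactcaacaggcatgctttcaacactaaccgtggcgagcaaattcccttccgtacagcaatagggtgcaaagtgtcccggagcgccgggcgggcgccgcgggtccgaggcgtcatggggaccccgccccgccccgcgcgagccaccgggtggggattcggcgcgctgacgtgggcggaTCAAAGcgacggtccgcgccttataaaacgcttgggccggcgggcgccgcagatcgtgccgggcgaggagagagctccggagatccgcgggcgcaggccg
Wnt3: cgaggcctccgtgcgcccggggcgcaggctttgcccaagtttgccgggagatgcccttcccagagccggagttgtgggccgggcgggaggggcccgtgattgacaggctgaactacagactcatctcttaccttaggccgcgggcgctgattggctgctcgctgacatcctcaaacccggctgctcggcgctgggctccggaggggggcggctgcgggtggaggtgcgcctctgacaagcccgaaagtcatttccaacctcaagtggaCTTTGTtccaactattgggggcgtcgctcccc
The Dkk1 window holds 3 matches, beginning at positions -174, -117 and -98 relative to the start site. In the Wnt11 window the match begins at position -50, and in the Wnt3 window at position 18. A match of letters is no site of binding, and CTTTGA or CTTTGT was not found in the windows of Wnt4, Wnt6, Wnt7a or Wnt9a.

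The first question was which members changed when all 3 Mta proteins were absent. In the libraries labelled 2iL, 35 of the 42 members passed the filter on low counts, and 14 of them rose and 4 fell in Mta123KO (edgeR quasi-likelihood test over 21651 genes, called where the Benjamini-Hochberg adjusted p was under 0.05 and the log2 fold change was above 1 or below -1), where 13.2% of all genes tested rose and 7.43% fell. In those labelled 48 h, 16 of the 36 members tested rose and 4 fell, against 14.1% and 5.93% of 21079 genes. The median log2 fold change over the members tested was 0.40 labelled 2iL and 0.85 labelled 48 h, beside 0.01 over all genes tested in each case. The filter admits a gene through the group where it is higher. Wnt7a and Wnt10a, with Wnt5a and Wnt8b labelled 2iL and Wnt9b and Wnt10b labelled 48 h, were under it among Control libraries alone. They could enter these tests and medians only by being higher in Mta123KO. The same filter was applied to all genes. The increases were mostly of ligands, 12 of 14 and 12 of 16. Both comparisons called Wnt3, Wnt3a, Wnt4, Wnt6, Wnt7a, Wnt7b, Wnt9a, Wnt10a, Wnt11 and Fzd6 as increased and Fzd8 and Lrp5 as decreased, and no member was called in opposite directions. The comparisons do not share control libraries, but do share lines. Below, where Control and Mta123KO values stand side by side, the Control values come first.

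**Figure D1:**
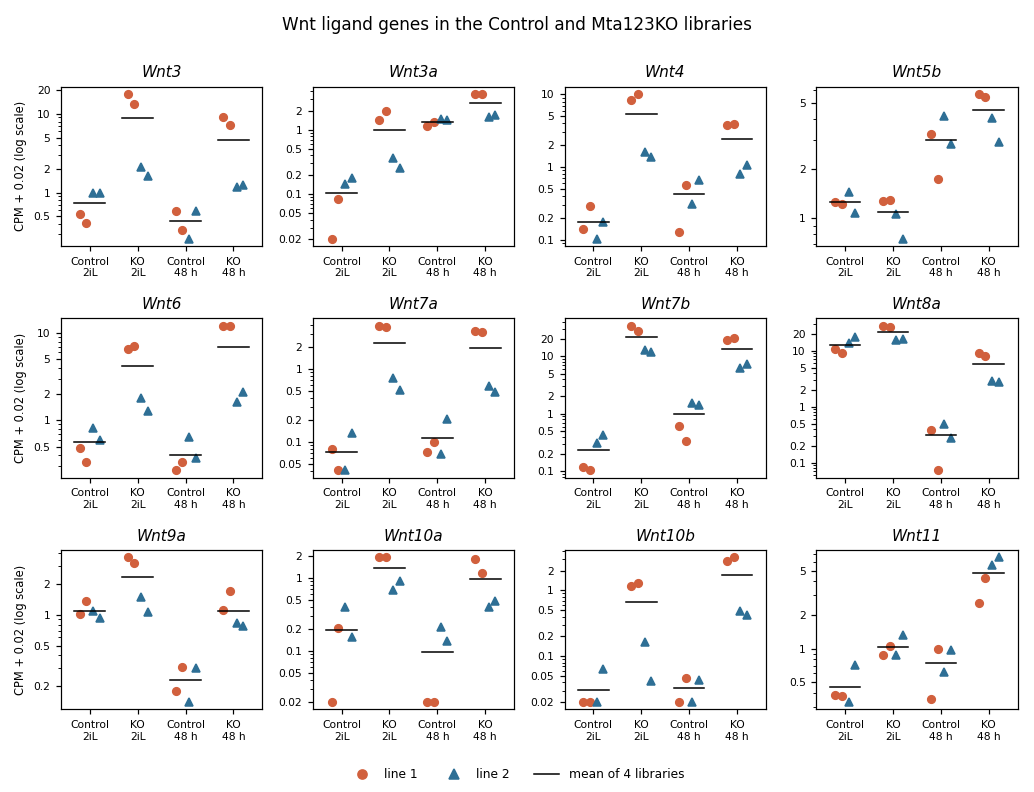
Each panel plots 1 ligand gene as CPM plus 0.02 on a log axis for the 4 libraries of each triple-mutant group; circles are line 1, triangles line 2, and the bar is the mean of 4. In most panels line 1 of Mta123KO lies highest, and for Wnt7b every Mta123KO library lies above every Control library of the same label.

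Wnt7b is a ligand known from lung, kidney and placenta. Its Control libraries held 0.0999, 0.0831, 0.290 and 0.399 CPM and its Mta123KO libraries 34.3, 27.3, 13.1 and 11.7 CPM, a log2 fold change of 6.65 (SE 0.56, adjusted p = 2.72e-05) in edgeR. The Mta123KO libraries all lay above the Control libraries. Labelled 48 h, Control held 0.600, 0.315, 1.53 and 1.40 CPM and Mta123KO 19.1, 20.7, 6.12 and 7.27 CPM, a log2 fold change of 3.80 (SE 0.57, adjusted p = 6.11e-04), again without overlap. The transcript AU022754 lies on the opposite strand within Wnt7b, and the use of strand in counting was not stated in the sources used here, so their reads cannot be told apart.

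Wnt3, the ligand that drives the primitive streak, stood at 0.520, 0.395, 0.974 and 0.976 CPM in Control and 17.9, 13.3, 2.09 and 1.62 CPM in Mta123KO labelled 2iL, a log2 fold change of 3.63 (SE 0.82, adjusted p = 0.00526). It stood at 0.564, 0.315, 0.240 and 0.560 CPM and 9.22, 7.15, 1.16 and 1.22 CPM labelled 48 h, a log2 fold change of 3.46 (SE 0.75, adjusted p = 0.00437). In both, all Mta123KO libraries lay above all Control libraries and line 1 lay far above line 2. Its relative Wnt3a stood at 0, 0.0624, 0.124 and 0.155 CPM and 1.42, 1.97, 0.340 and 0.237 CPM labelled 2iL, 3.54 (SE 0.88, adjusted p = 0.00841) as a log2 fold change. The values 1.13, 1.29, 1.46 and 1.40 CPM in Control and 3.61, 3.63, 1.56 and 1.72 CPM in Mta123KO labelled 48 h gave 1.003 (SE 0.31, adjusted p = 0.0226), barely over the fold threshold and without overlap between groups. With the replicate number as a block, Wnt3 and Wnt3a labelled 2iL had adjusted p of 0.0536 and 0.0526 and Wnt3a labelled 48 h of 0.0676 (edgeR), though the numbers did not pair these libraries, and without Mta123KO line 1 the log2 fold changes of Wnt3a were 1.75 (adjusted p = 0.0608) and 0.33 (adjusted p = 0.212).

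Wnt4, a ligand of kidney and gonad formation, was low in Control labelled 2iL, at 0.120, 0.270, 0.0829 and 0.155 CPM, and stood at 8.35, 10.2, 1.60 and 1.36 CPM in Mta123KO, a log2 fold change of 5.09 (SE 0.82, adjusted p = 8.64e-04). Labelled 48 h it stood at 0.106, 0.552, 0.287 and 0.653 CPM and 3.81, 3.92, 0.782 and 1.04 CPM, a log2 fold change of 2.61 (SE 0.68, adjusted p = 0.0104). Every Mta123KO library exceeded every Control library of its label, and without Mta123KO line 1 the change labelled 48 h was 1.24 (adjusted p = 0.0869, edgeR). Wnt6, made by surface ectoderm and extra-embryonic tissue, rose from 0.460, 0.312, 0.808 and 0.577 CPM to 6.63, 7.12, 1.77 and 1.27 CPM labelled 2iL, by 2.97 (SE 0.61, adjusted p = 0.00322) on the log2 scale, and from 0.247, 0.315, 0.623 and 0.350 to 12.1, 12.2, 1.59 and 2.099 CPM labelled 48 h, by 4.20 (SE 0.77, adjusted p = 0.00176). Its groups did not overlap under either label.

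Wnt7a, known for limb patterning, went from 0.0600, 0.0208, 0.0207 and 0.111 CPM in Control to 3.89, 3.74, 0.729 and 0.495 CPM in Mta123KO labelled 2iL, a log2 fold change of 5.35 (SE 0.91, adjusted p = 0.00116). From 0.0529, 0.0789, 0.0479 and 0.187 to 3.28, 3.21, 0.559 and 0.456 CPM labelled 48 h the change was 4.35 (SE 0.85, adjusted p = 0.00249). Neither label showed overlap. Wnt10a, a ligand of tooth and hair formation, was counted at 0, 0.187, 0.373 and 0.133 CPM in Control and 1.89, 1.88, 0.656 and 0.883 CPM in Mta123KO labelled 2iL (log2 fold change 2.94, SE 0.69, adjusted p = 0.00628), and at 0, 0, 0.192 and 0.117 and 1.80, 1.14, 0.380 and 0.456 CPM labelled 48 h (log2 fold change 3.63, SE 0.87, adjusted p = 0.00734). All its Control libraries lay below all Mta123KO libraries of the same label.

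Wnt11 and Wnt9a rose less. Wnt11, which acts mainly without β-catenin in cell movements, stood at 0.360, 0.353, 0.311 and 0.688 CPM in Control and 0.850, 1.04, 0.850 and 1.29 CPM in Mta123KO labelled 2iL, a log2 fold change of 1.26 (SE 0.30, adjusted p = 0.00655). Labelled 48 h it stood at 0.335, 0.973, 0.599 and 0.956 and 2.52, 4.31, 5.63 and 6.59 CPM, a log2 fold change of 2.76 (SE 0.39, adjusted p = 4.39e-04). Groups did not overlap, and line 2 lay above line 1 under both labels. An opposite-strand gene, Gm8398, overlaps Wnt11. Wnt9a, a ligand of joint formation, stood at 0.999, 1.33, 1.06 and 0.909 and 3.63, 3.15, 1.48 and 1.03 CPM labelled 2iL, a log2 fold change of 1.13 (SE 0.39, adjusted p = 0.0344) with overlap between groups, which without Mta123KO line 1 was 0.24 (adjusted p = 0.453) and with the replicate block 0.98 (adjusted p = 0.0507). At 0.159, 0.289, 0.120 and 0.280 and 1.09, 1.67, 0.805 and 0.748 CPM labelled 48 h, its log2 fold change of 2.36 (SE 0.38, adjusted p = 8.99e-04) came without overlap.

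Further ligands were called under a single label. Wnt8a, a ligand of the early posterior embryo, held 0.370, 0.0526, 0.479 and 0.257 CPM in Control and 9.11, 8.07, 2.84 and 2.76 CPM in Mta123KO labelled 48 h, a log2 fold change of 4.26 (SE 0.60, adjusted p = 4.04e-04). Labelled 2iL it was already at 10.8, 8.92, 13.8 and 17.2 CPM in Control, and the 28.2, 27.0, 15.5 and 16.1 CPM in Mta123KO gave 0.79 (SE 0.26, adjusted p = 0.0304), which did not pass the fold threshold. Wnt10b, which holds back fat cell formation, was counted 307 times over the 4 Mta123KO libraries labelled 48 h (2.75, 3.19, 0.469 and 0.402 CPM) and 2 times over the 4 Control libraries, a ratio of 146 with a 95% exact interval of 40.1 to 1213 for counting error only (adjusted p = 0.00100). Wnt9b, a kidney ligand, was counted 133 times against 1, a ratio of 127 (22.4 to 5041, adjusted p = 8.40e-04). In the libraries labelled 2iL both were under the filter on low counts, with 1.17, 1.27, 0.146 and 0.0215 CPM of Wnt10b and 1.08, 0.930, 0.0729 and 0.194 CPM of Wnt9b in Mta123KO.

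Wnt2b, Wnt5a and Wnt8b rose labelled 2iL with means under 1 CPM in the higher group. Wnt5a, the main ligand of Ror receptors, ran from 0.0665 to 0.249 CPM in Control and 0.437 to 1.17 CPM in Mta123KO labelled 2iL. Wnt2b ran from 0.340 to 0.510 and 0.711 to 1.04 CPM, and Wnt8b from 0.200 to 0.355 and 0.590 to 1.18 CPM. The groups of these 3 genes did not overlap. Wnt5a is overlapped by Gm2670 on the opposite strand. Wnt5b and Wnt16 did not pass the thresholds under either label, and Wnt1 and Wnt2, at most 0.272 and 0.249 CPM in any of the 34 libraries, were tested in no comparison.

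Among receptors, Fzd6 rose and Fzd8 and Lrp5 fell under both labels. Fzd6, which acts mainly in planar polarity, stood at 6.58, 6.19, 4.99 and 7.43 CPM in Control and 17.2, 16.9, 14.2 and 14.8 CPM in Mta123KO labelled 2iL, a log2 fold change of 1.34 (SE 0.13, adjusted p = 6.31e-05). Labelled 48 h, 5.08, 4.97, 5.27 and 4.20 and 14.9, 14.1, 13.5 and 12.7 CPM gave 1.51 (SE 0.11, adjusted p = 1.04e-05). The groups did not overlap and, unlike most ligands, both Mta123KO lines stood at similar levels. Gm26704 overlaps Fzd6 on the opposite strand, so their reads cannot be told apart. Fzd8, a receptor of β-catenin signalling, stood at 4.62, 3.95, 5.05 and 5.66 and 1.87, 2.04, 1.12 and 1.16 CPM labelled 2iL and at 5.40, 6.02, 4.10 and 4.76 and 1.53, 1.74, 1.99 and 1.35 CPM labelled 48 h. Its log2 fold changes were -1.62 (SE 0.23, adjusted p = 4.32e-04) and -1.61 (SE 0.18, adjusted p = 1.14e-04), with no overlap.

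Lrp5, the co-receptor gene, stood at 59.2, 64.1, 52.98 and 60.01 CPM in Control and 30.8, 29.2, 16.6 and 17.1 CPM in Mta123KO labelled 2iL, a log2 fold change of -1.32 (SE 0.21, adjusted p = 7.85e-04). Values of 60.5, 67.6, 53.03 and 66.04 and 33.3, 38.6, 18.6 and 19.4 CPM labelled 48 h gave -1.16 (SE 0.23, adjusted p = 0.00301). All Mta123KO libraries lay below Control, line 2 lower than line 1, and with line 2 left out the log2 fold changes were -0.97 and -0.77, under the fold threshold. The related co-receptor gene Lrp6 stood at 100.3, 115, 107 and 111 CPM in Control and 105, 112, 134 and 135 CPM in Mta123KO labelled 2iL and was called in none of the 8 comparisons. Ryk, a receptor with a Wnt-binding domain of another kind, and Fzd1 were also called in none.

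A further 4 Frizzled genes were called under a single label. Fzd2 held 38.9, 39.03, 33.4 and 34.4 CPM in Control and 17.4, 17.1, 15.6 and 15.6 CPM in Mta123KO labelled 2iL, a log2 fold change of -1.13 (SE 0.08, adjusted p = 1.29e-05), against 5.27, 6.31, 6.73 and 9.12 and 13.7, 13.3, 7.87 and 11.8 CPM labelled 48 h, 0.78 (SE 0.21, adjusted p = 0.0138). Fzd4, the receptor of Norrin as well as of Wnts, held 5.94, 7.03, 6.30 and 7.08 and 2.17, 2.54, 3.08 and 3.66 CPM labelled 2iL, a log2 fold change of -1.18 (SE 0.17, adjusted p = 4.94e-04). Both had fallen without overlap, and without Mta123KO line 1 the log2 fold change of Fzd4 was -0.95, under the fold threshold. Fzd10 held 4.86, 4.78, 6.61 and 7.98 and 24.3, 24.5, 7.99 and 9.09 CPM labelled 2iL, a log2 fold change of 1.46 (SE 0.39, adjusted p = 0.0126) that rested on line 1: with line 1 left out it was 0.51 (adjusted p = 0.0579, edgeR), and with the replicate block 1.30 (adjusted p = 0.0704). Fzd9 held 2.45, 2.45, 2.52 and 3.10 and 7.51, 7.70, 7.08 and 7.83 CPM labelled 48 h, a log2 fold change of 1.53 (SE 0.13, adjusted p = 2.14e-05) with the lines alike and no overlap, while labelled 2iL its 5.16, 4.01, 4.43 and 4.90 CPM in Control and 2.53, 1.995, 2.84 and 3.55 CPM in Mta123KO pointed the other way, at -0.74 (SE 0.18, adjusted p = 0.00837). Ror1, a receptor of Wnt5a, held 1.02, 0.683, 1.49 and 1.63 and 0.277, 0.330, 0.246 and 0.383 CPM labelled 48 h, a log2 fold change of -1.94 (SE 0.32, adjusted p = 9.62e-04) without overlap.

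**Figure D2:**
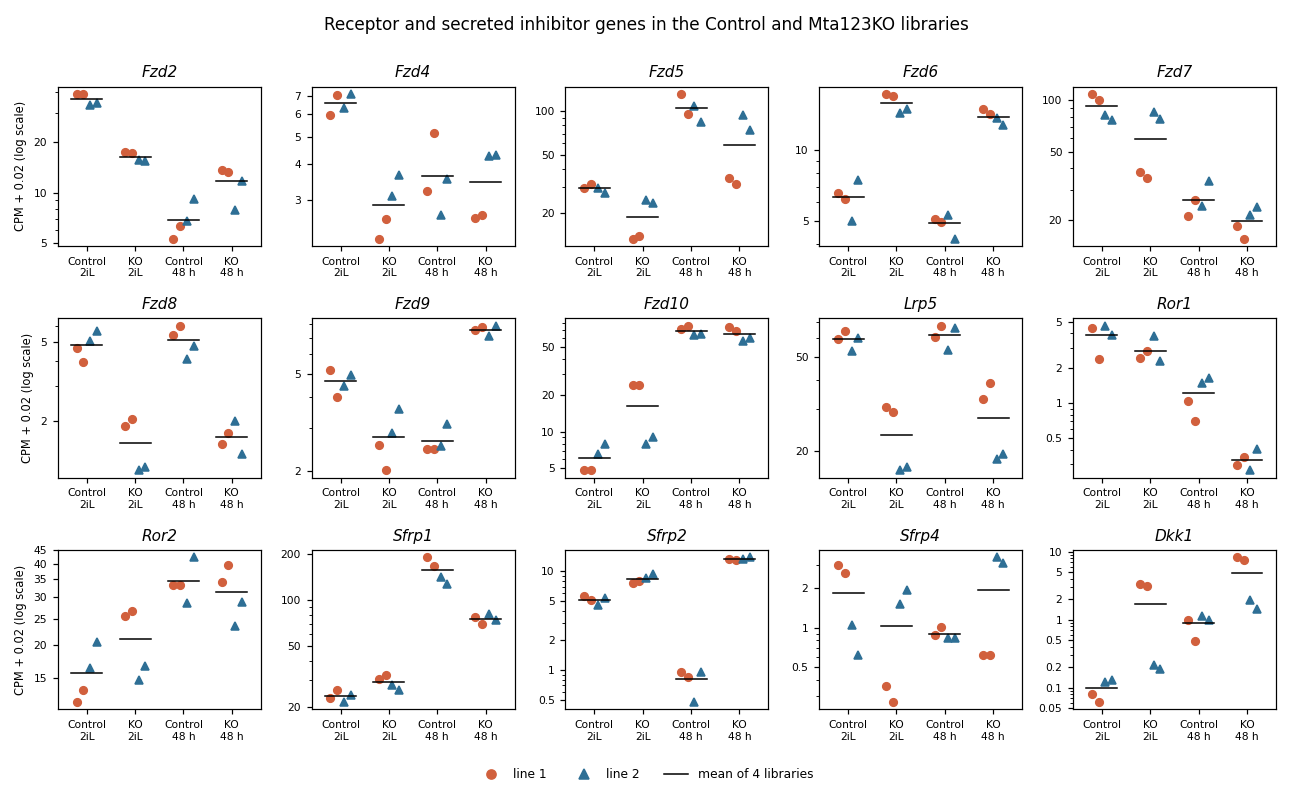
Each panel plots 1 receptor or inhibitor gene as CPM plus 0.02 on a log axis for the 4 libraries of each triple-mutant group, with circles for line 1, triangles for line 2 and a bar for the mean of 4. Fzd6 is higher in Mta123KO under both labels with the lines alike, Sfrp2 is higher in Mta123KO labelled 48 h, and Fzd10 and Sfrp1 are higher in the groups labelled 48 h.

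Of the 8 secreted inhibitors, 3 of the 6 tested were called in Mta123KO labelled 48 h and 0 of the 5 tested labelled 2iL. Sfrp2 stood at 0.935, 0.841, 0.455 and 0.933 CPM in Control and 13.4, 12.98, 13.4 and 13.9 CPM in Mta123KO labelled 48 h, a log2 fold change of 4.08 (SE 0.20, adjusted p = 2.07e-06). Labelled 2iL it stood at 5.58, 5.09, 4.58 and 5.41 and 7.58, 7.98, 8.50 and 9.35 CPM, 0.71 (SE 0.11, adjusted p = 7.47e-04), again without overlap but under the fold threshold. Gm26771 overlaps Sfrp2 on the opposite strand. Sfrp1, the most abundant of these genes per kilobase in Control under both labels, stood at 190.0, 167, 142 and 127 and 77.3, 69.6, 80.9 and 74.2 CPM labelled 48 h, a log2 fold change of -1.04 (SE 0.12, adjusted p = 1.36e-04) without overlap. Dkk1, the blocker of Lrp5 and Lrp6, stood at 0.970, 0.473, 1.10 and 0.979 and 8.34, 7.52, 1.97 and 1.44 CPM labelled 48 h, a log2 fold change of 2.45 (SE 0.59, adjusted p = 0.00745). Line 2 of Dkk1 lay just above Control, and with line 1 left out the change was 0.94 (adjusted p = 0.0343, edgeR). In the libraries labelled 2iL, Dkk1 was under the filter, at 0.0600, 0.0416, 0.104 and 0.111 CPM in Control and 3.36, 3.13, 0.194 and 0.172 CPM in Mta123KO.

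The 2 Mta123KO lines differed in the size of the ligand changes. Of the 12 ligands called increased labelled 2iL, 10 had a higher mean in line 1 than in line 2, 5 of them by 3-fold or more: Wnt3 (8.44-fold), Wnt4 (6.26-fold), Wnt7a (6.23-fold), Wnt3a (5.89-fold) and Wnt6 (4.52-fold). Of the 12 called labelled 48 h, 11 were higher in line 1, 8 of them by 3-fold or more, up to 6.86-fold for Wnt3, and Wnt11 was lower in line 1 (0.559-fold). For Fzd6 the ratio of the lines was 1.17 and 1.10, and for Sfrp2 labelled 48 h it was 0.964. These ratios come from 2 libraries a line and carry no test. With line 1 left out, 11 members rose and 3 fell labelled 2iL (beside 12.1% and 8.31% of all genes tested), and 14 and 4 labelled 48 h (beside 13.0% and 6.56%). With the libraries of each line summed, 5 rose and 4 fell labelled 2iL (beside 7.68% and 3.91%), and 9 and 3 labelled 48 h (beside 9.07% and 3.44%). The ligands called with summed libraries were Wnt4, Wnt5a, Wnt7a and Wnt7b labelled 2iL and Wnt7b, Wnt8a, Wnt9a, Wnt9b, Wnt10b and Wnt11 labelled 48 h.

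Markers of trophoblast summed higher than Control in each Mta123KO line, most of all in line 1. The 6 genes of that list, all detected, summed to 16.1, 19.7, 16.8 and 19.7 CPM in Control and 401, 442, 99.99 and 109 CPM in Mta123KO labelled 2iL, and to 81.6, 91.3, 72.3 and 91.9 and 731, 765, 166 and 178 CPM labelled 48 h. Most of it came from Krt8 and Krt18, at 203 ± 157 and 198 ± 161 CPM (SD, n = 4) in Mta123KO labelled 48 h, while the trophoblast factors Cdx2 and Elf5 stood at 0.603 to 3.45 and 1.06 to 1.70 CPM. The rise was not confined to the keratin genes. All 6 genes, which include the factors Gata3 and Tfap2c, were called increased labelled 2iL. Labelled 48 h, 4 of the 6 were called increased and 0 decreased. The 6 markers of primitive endoderm, all detected, summed to 4.65 to 5.68 CPM in Control and 18.1 to 21.6 CPM in Mta123KO labelled 48 h. Labelled 2iL they summed to 8.63, 10.5, 18.2 and 22.1 CPM in Control and 25.8, 26.7, 17.5 and 16.6 CPM in Mta123KO, which overlapped, with line 2 of Mta123KO no higher than the highest Control libraries. As single genes, 2 of these 6 were called increased and 1 decreased labelled 48 h, and 2 and 2 labelled 2iL.

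Other marker lists also moved with Mta123KO. Labelled 2iL, the 5 mesendoderm markers summed ran from 3.62 to 4.55 CPM in Control and 9.54 to 14.9 CPM in Mta123KO, the 8 of fibroblasts or feeder cells from 3.28 to 5.76 and 7.80 to 15.3 CPM, and the naive markers from 158 to 244 and 418 to 544 CPM. The 5 formative markers ran from 764 to 1302 and 229 to 309.8 CPM there and the 5 neural markers from 83.3 to 109 and 35.96 to 45.3 CPM, so that the first 3 lists were higher and the last 2 lower in every Mta123KO library. Labelled 48 h, the naive markers ran from 3679 to 4055 CPM in Control and 1912 to 2837 CPM in Mta123KO and the mesendoderm markers from 14.2 to 17.3 and 8.89 to 12.1 CPM, both lower without overlap, while the formative, feeder and neural lists overlapped. Every marker was detected in each triple-mutant group except 1 feeder gene in Control labelled 48 h. Single genes did not all follow the sums. Labelled 2iL, 4 feeder genes were called increased and 1 decreased, and 1 formative gene was called increased and 4 decreased. The naive, mesendoderm and neural lists held no call against their sum there. The part of all these lists in the changes of the members was not tested.

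**Figure D3:**
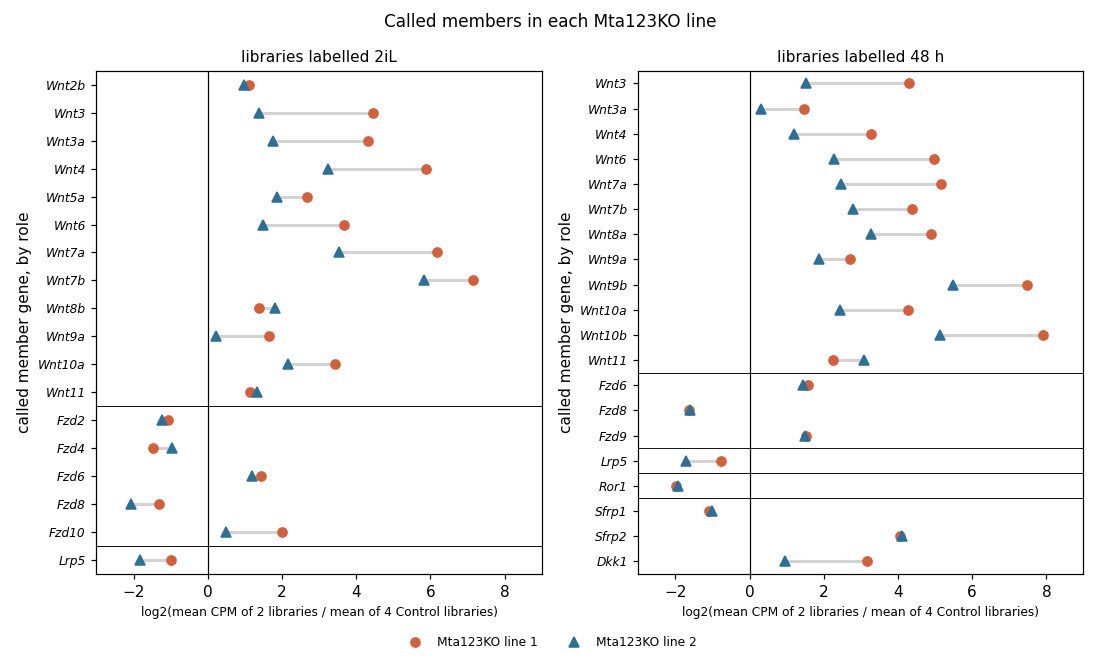
Each row is a member called in Mta123KO against Control for that label, divided by role, and the horizontal axis gives the log2 ratio of the mean CPM of a line's 2 libraries to the mean of the 4 Control libraries, with circles for line 1, triangles for line 2 and a grey bar between them. Line 1 lies to the right of line 2 for 10 of 12 ligands labelled 2iL and 11 of 12 labelled 48 h, and both lines lie together for Fzd6 and for Sfrp2.

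The next comparison asked how members differed between the culture labels within a genotype. In Control, 8 of 32 members tested were higher and 8 lower labelled 48 h than labelled 2iL, where 10.4% of 21240 genes were higher and 13.2% lower. In Mta123KO, 6 of 38 were higher and 6 lower, against 4.84% and 4.62% of 21505 genes. The median log2 change over the members tested was -0.31 in Control and 0.00 in Mta123KO, beside 0.01 and 0.00 over all genes tested. Here the numbers were taken to pair the libraries. The counts above and the tests below nevertheless come from the main fits, which hold no block for the pairs. The lines are shared between labels, but nothing states that the 2 libraries of a line pair by number. A library correlated best with its own number for 4 of 4 in Control and 3 of 4 in Mta123KO. With the replicate block 9 members were higher and 8 lower in Control, beside 10.5% and 13.6% of all genes tested, and 9 and 8 in Mta123KO, beside 6.36% and 6.01%. With summed libraries and no block, no member and no other gene was called in Mta123KO (edgeR, 7 members higher and 6 lower at an unadjusted p under 0.05), and with summed libraries and the block 9 members were higher and 7 lower, beside 5.06% and 4.60% of all genes.

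Both genotypes had Wnt5b, Fzd5, Fzd10 and Sfrp1 higher and Wnt8a, Fzd7, Ror1 and Sfrp5 lower labelled 48 h. Fzd10 in Control stood at 4.86, 4.78, 6.61 and 7.98 CPM labelled 2iL and 70.8, 75.6, 63.4 and 64.8 CPM labelled 48 h, a log2 fold change of 3.52 (SE 0.15, adjusted p = 1.50e-08), and in Mta123KO its values of 24.3, 24.5, 7.99 and 9.09 and 73.6, 68.5, 56.3 and 59.1 CPM gave 1.96 (SE 0.38, adjusted p = 0.00744). Sfrp1 in Control went from 22.8, 26.0, 21.5 and 24.02 to 190.0, 167, 142 and 127 CPM, 2.74 (SE 0.12, adjusted p = 1.79e-08), and in Mta123KO from 30.7, 32.2, 27.9 and 25.8 to 77.3, 69.6, 80.9 and 74.2 CPM, 1.37 (SE 0.09, adjusted p = 5.91e-05). Fzd5, a receptor of the yolk sac and eye, in Control went from 29.7, 31.4, 29.6 and 27.5 to 132, 95.6, 109 and 83.8 CPM, 1.85 (SE 0.12, adjusted p = 2.85e-07). For all 3 the labels did not overlap within a genotype. Gm38058 overlaps Fzd5 on the opposite strand.

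Fzd7, the Frizzled gene with the highest level per kilobase of exon in Control labelled 2iL (20.4 CPM per kilobase), went from 109, 101, 82.2 and 77.2 CPM labelled 2iL to 20.95, 26.2, 23.9 and 33.6 CPM labelled 48 h in Control, a log2 fold change of -1.81 (SE 0.15, adjusted p = 1.80e-06). In Control labelled 48 h, Fzd10 (21.1 CPM per kilobase) and Fzd5 (15.2) stood above Fzd7 (5.77), so that the order of the Frizzled genes differed between labels. Wnt8a was the highest ligand per kilobase in Control labelled 2iL (7.27 CPM per kilobase) and changed by -5.38 (SE 0.36, adjusted p = 3.03e-07) on the log2 scale, whereas Wnt5b, at 1.12 CPM per kilobase, was the highest labelled 48 h. Its CPM went from 1.24, 1.21, 1.43 and 1.07 to 3.21, 1.71, 4.17 and 2.82 in Control (log2 fold change 1.29, SE 0.24, adjusted p = 8.79e-04) and from 1.25, 1.27, 1.04 and 0.732 to 5.66, 5.43, 4.05 and 2.90 in Mta123KO (log2 fold change 2.06, SE 0.27, adjusted p = 0.00130). All Wnt5b libraries labelled 48 h lay above those labelled 2iL in either genotype.

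Other members differed between labels in 1 genotype's test. In Control, Wnt3a, Wnt7b, Ror2 and Dkk1 were higher and Wnt9a, Fzd2, Fzd3 and Sfrp2 lower labelled 48 h. Ror2, a Wnt5a receptor, went from 12.2, 13.5, 16.3 and 20.4 to 33.3, 33.2, 28.6 and 42.4 CPM (log2 fold change 1.16, SE 0.16, adjusted p = 1.05e-04), and Fzd3, an axon guidance receptor, from 15.9, 17.9, 14.4 and 17.3 to 5.91, 6.86, 5.72 and 5.95 CPM (log2 fold change -1.41, SE 0.10, adjusted p = 4.61e-07). In Mta123KO, Wnt11 and Fzd9 were higher and Wnt5a and Wnt8b lower. Wnt5a was counted 151 times over the 4 libraries labelled 2iL and 3 times over those labelled 48 h, a ratio of 53.0 (95% exact interval 17.8 to 259.9 for counting error only). Sfrp5, lower labelled 48 h in both genotypes, had libraries at 0.480 to 1.18 and 0.264 to 0.552 CPM in Control, which overlapped. Wnt7b in Control overlapped as well.

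**Figure D4:**
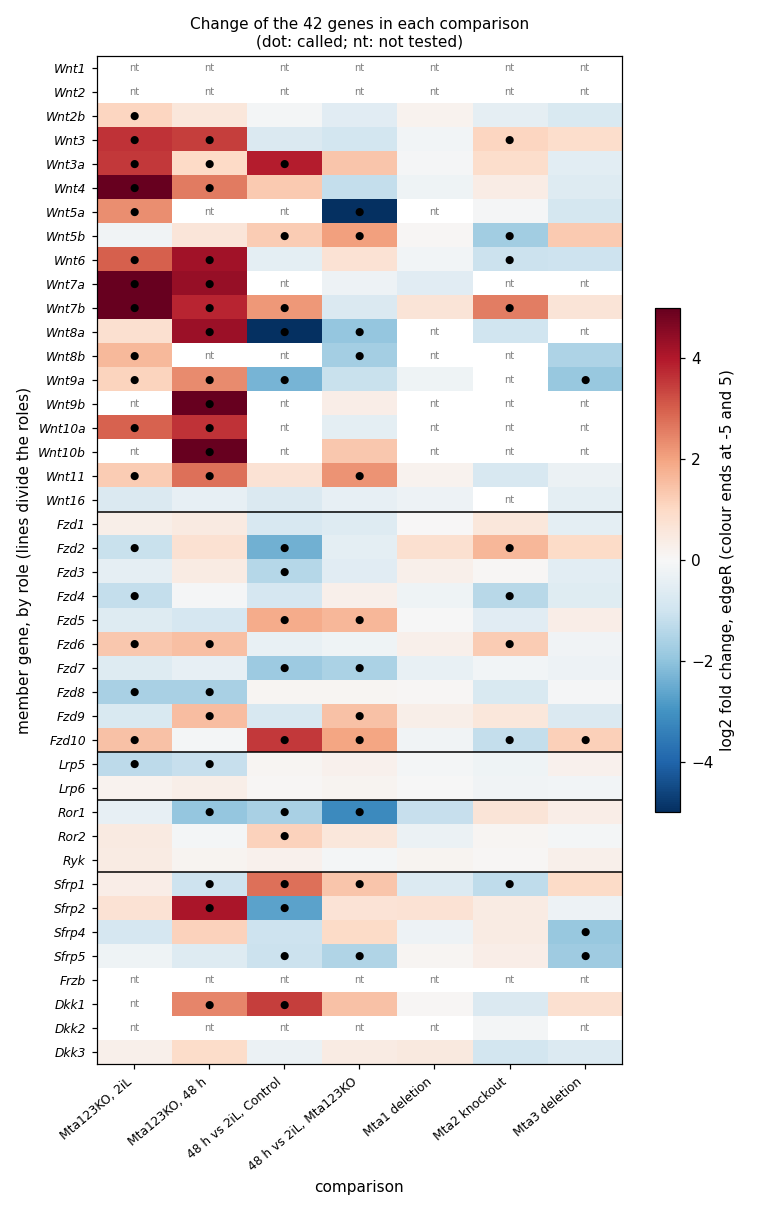
The heat map shows the log2 fold change of each of the 42 members (rows, divided by role) in 7 comparisons (columns), red for higher and blue for lower, with the colour ending at 5; dots mark calls past both thresholds and nt marks members under the filter on low counts. The ligand rows carry most dots in both Mta123KO columns, and the Mta1 deletion column has none.

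Whether the Mta123KO change differed between labels was tested with an interaction term over all 16 libraries. Of 38 members tested, 6 had a more positive change labelled 48 h (Wnt8a, Wnt11, Fzd2, Fzd4, Fzd9 and Sfrp2) and 5 a more negative one (Wnt5a, Wnt7b, Fzd10, Ror1 and Sfrp1), against 7.66% and 5.37% of 22973 genes. The largest were Sfrp2, with a difference of 3.38 on the log2 scale (SE 0.22, adjusted p = 1.42e-07), and Wnt8a, with 3.47 (SE 0.65, adjusted p = 0.00121), beside Wnt5a, which rests on 3 counts in 1 group. With the replicate block, which pairs same-numbered libraries across labels, 10 and 8 members were called, beside 9.50% and 6.99% of all genes, and with the libraries of each line summed 3 and 1, beside 387 and 280 of all 25816 genes tested there. Fzd2, Fzd9, Sfrp1 and Sfrp2 were called in the fit of summed libraries. Without Mta123KO line 1 the interaction of Fzd10 was -0.78 and that of Wnt5a had an adjusted p of 0.183, and without line 2 those of Wnt11 and Ror1 had adjusted p of 0.148 and 0.0534 (edgeR). For Fzd2 the sign of the fitted change itself differed, at -1.13 labelled 2iL and 0.78 labelled 48 h.

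In the single mutants each member was compared with its parent or wild type. In Mta1 del/del, none of the 32 members tested was called in edgeR (0 at an unadjusted p under 0.05) or DESeq2 (1 at that level), where 0% of 14561 genes were called in either direction. Only 50 of those 14561 genes had an unadjusted p under 0.05 in edgeR, and Mta1 itself was not called. The lack of calls therefore does not show that the members were unchanged. Libraries of the same number deviated together in this series, and with the replicate block there were again 0 calls, with 1 member higher and 1 lower at an unadjusted p under 0.05. The spread between libraries was wide: Fzd3 stood at 4.14, 7.73 and 22.2 CPM in the parent and 3.87, 10.8 and 26.3 CPM in the mutant, and Sfrp1 at 114, 131 and 25.2 and 99.3, 32.5 and 40.7 CPM. For both, the libraries of a group differed more from each other than the group means did.

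In Mta2 KO, 4 of 32 members rose and 5 fell, against 5.31% and 6.04% of 15602 genes. The ligands Wnt7b and Wnt3 and the receptors Fzd6 and Fzd2 rose. Wnt7b stood at 0.432, 0.624 and 0.637 CPM in WT and 3.34, 2.78 and 4.06 CPM in Mta2 KO (log2 fold change 2.57, SE 0.23, adjusted p = 1.83e-05), and Wnt3 at 1.01, 0.780 and 1.05 and 1.87, 2.31 and 1.78 CPM (log2 fold change 1.07, SE 0.21, adjusted p = 0.00256). Fzd6 stood at 4.40, 4.68 and 4.84 and 12.1, 11.02 and 10.8 CPM (log2 fold change 1.28, SE 0.10, adjusted p = 5.37e-06). The groups of these genes did not overlap, and all 3 had also risen in Mta123KO under both labels, although with other lines, libraries and depth. Fzd2 rose from 3.37, 2.05 and 3.98 to 10.4, 10.3 and 9.36 CPM (log2 fold change 1.68, SE 0.20, adjusted p = 1.10e-04), whereas it had fallen in Mta123KO labelled 2iL. Labelled 48 h, each Mta123KO line stood above the Control mean for Fzd2, without a call. The culture labels of the single-mutant and triple-mutant sets may not match. Naive markers summed to 4770.0 to 5079 CPM in Mta2 WT. In Control they summed to 3679 to 4055 CPM labelled 48 h and 158 to 244 CPM labelled 2iL.

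Wnt5b, Wnt6, Fzd4, Fzd10 and Sfrp1 fell in Mta2 KO. Wnt5b went from 9.87, 10.8 and 10.9 CPM in WT to 2.76, 2.66 and 4.03 CPM (log2 fold change -1.76, SE 0.15, adjusted p = 1.59e-05), and Wnt6 from 0.979, 0.988 and 1.43 to 0.552, 0.555 and 0.503 CPM (log2 fold change -1.07, SE 0.27, adjusted p = 0.0101), while it had risen in Mta123KO under both labels. The receptor Fzd4 went from 7.22, 6.58 and 6.31 to 2.52, 2.43 and 2.82 CPM (log2 fold change -1.38, SE 0.12, adjusted p = 1.23e-05), and had also fallen in Mta123KO labelled 2iL. No library of these 3 genes overlapped between groups. Fzd10 went from 138, 133 and 136 to 59.9, 58.7 and 58.2 CPM (log2 fold change -1.21, SE 0.04, adjusted p = 2.01e-08), although it was called increased in Mta123KO labelled 2iL, and Sfrp1, which had also fallen in Mta123KO labelled 48 h, from 142, 155 and 132 to 59.6, 62.5 and 58.9 CPM (log2 fold change -1.25, SE 0.06, adjusted p = 3.39e-07). Labelled 48 h, neither Fzd4 nor Fzd10 was called in Mta123KO. No difference between the Mta2 KO and Mta123KO changes was tested. When all 18 libraries were fitted together, 2 members rose and 3 fell, beside 3.71% and 4.03% of all genes, and the calls of Wnt3 (adjusted p = 0.251), Fzd6 (adjusted p = 0.0683), Wnt6 (adjusted p = 0.0971) and Sfrp1 (adjusted p = 0.0932, edgeR) were lost. Since a single primary Mta2 KO line is listed, a difference between lines and one of genotype cannot be told apart here. Marker lists moved with this comparison too. Neural markers summed to 31.4 to 39.1 CPM in WT and 66.9 to 75.3 CPM in Mta2 KO and trophoblast markers to a median of 99.9 and 143 CPM, both higher in every Mta2 KO library. Lower in every Mta2 KO library were the naive markers, at 4770.0 to 5079 CPM in WT and 3519 to 3644 CPM in Mta2 KO, the formative markers, at 102 to 108 and 75.6 to 81.1 CPM, the mesendoderm markers, at 24.8 to 28.4 and 15.3 to 16.1 CPM, and those of fibroblasts or feeder cells, at 18.9 to 19.8 and 10.7 to 11.9 CPM. Single genes did not all follow these sums, which the most abundant genes of a list can carry. Of the 5 neural genes 2 were called increased and 2 decreased, and of the 6 trophoblast genes 1 and 3. The formative list held 1 gene called increased and 0 decreased. Decreases alone were called in the naive (2), mesendoderm (1) and feeder (1) lists. The part of these lists in the changes of the members was not tested.

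In Mta3 del/del, 1 of 33 members rose and 3 fell, against 0.812% and 5.25% of 15522 genes. Fzd10 rose from 33.8, 22.3 and 24.9 to 74.2, 35.1 and 86.4 CPM (log2 fold change 1.21, SE 0.30, adjusted p = 0.0326). Wnt9a fell from 1.77, 1.71 and 3.16 to 0.589, 0.815 and 0.437 CPM (log2 fold change -1.89, SE 0.41, adjusted p = 0.0239). Neither showed overlap. The inhibitor Sfrp4 fell from 2.65, 5.17 and 2.85 to 0.699, 1.13 and 1.18 CPM (log2 fold change -1.90, SE 0.38, adjusted p = 0.0214) and Sfrp5 from 1.49, 2.69 and 3.78 to 0.809, 0.893 and 0.699 CPM (log2 fold change -1.79, SE 0.39, adjusted p = 0.0242), also without overlap. With replicate 1 or replicate 3 left out, none of these 4 calls remained in edgeR (3 higher and 4 lower without replicate 1, and 3 higher and 8 lower without replicate 3, at an unadjusted p under 0.05). Markers of fibroblasts or feeder cells moved with this comparison: the 8 genes, all detected, summed to 18.5, 27.8 and 65.4 CPM in the parent and 10.4, 10.2 and 13.3 CPM in the mutant, and Col3a1 stood at 1.22, 0.663 and 20.3 and 0, 0.233 and 0.0874 CPM. Naive markers summed to 3226 to 3921 CPM in the parent and 4028 to 4778 CPM in the mutant, mesendoderm markers to 9.52 to 13.7 and 15.8 to 27.3 CPM and primitive endoderm markers to 13.6 to 16.8 and 8.87 to 11.97 CPM, none with overlap. As single genes, 0 of the 8 naive and 0 of the 4 mesendoderm genes tested were called. Of the 6 primitive endoderm genes 1 was called decreased, and of the 5 feeder genes tested 2 were called decreased. The part of these lists in the changes was not tested.

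**Figure D5:**
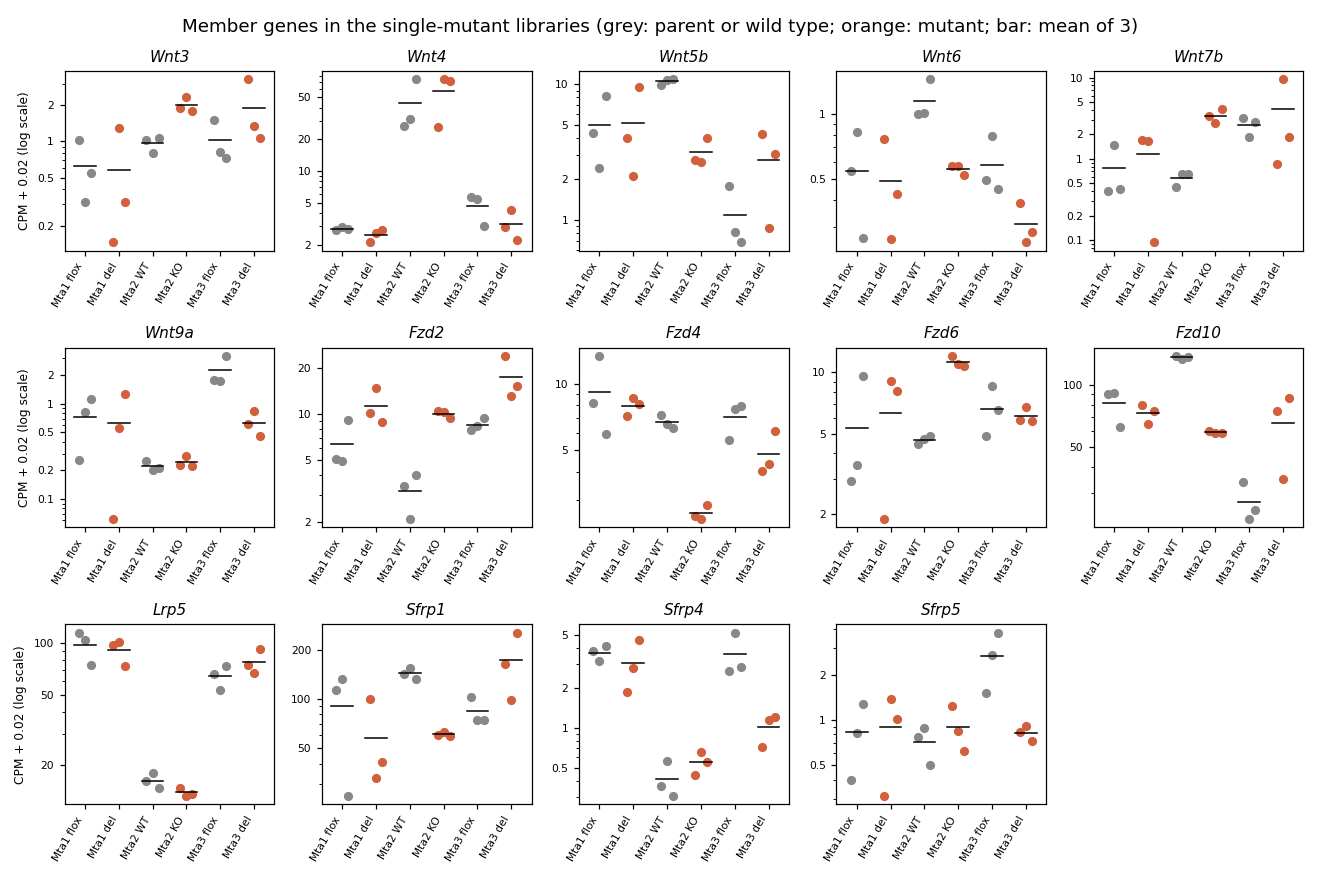
Each panel plots 1 member as CPM plus 0.02 on a log axis in the 6 single-mutant groups, grey for the parent or wild type and orange for the mutant, in replicate order, with a bar for the mean of 3. Wnt7b and Fzd6 are higher and Sfrp1 and Fzd10 lower in Mta2 KO, and Wnt4 and Lrp5 differ between the Mta2 groups and all others.

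Wnt4 and Lrp5 differed between the backgrounds of the single mutants. Wnt4 stood at 26.6, 31.3 and 74.6 CPM in Mta2 WT and 26.3, 74.2 and 71.7 CPM in Mta2 KO, but ran from 2.76 to 2.92 CPM in the Mta1 parent and from 2.97 to 5.64 CPM in the Mta3 parent. Lrp5 stood at 16.03, 17.8 and 14.7 CPM in Mta2 WT, against 114, 103 and 74.1 CPM in the Mta1 parent and 66.5, 53.2 and 73.2 CPM in the Mta3 parent. Neither overlapped between the Mta2 WT libraries and those of either parent. This difference lies outside the comparisons of the design and was not tested.

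The other 56 genes of the pathway give the setting of these changes. Of the 47 that were tested labelled 2iL, 12 rose and 4 fell in Mta123KO, and of the 47 tested labelled 48 h, 11 rose and 2 fell, beside the shares of all genes given above. Other extracellular inhibitors made up 5 of 12 and 4 of 11 increases. Among these, Kremen1, a Dkk receptor, went from 11.4, 12.9, 10.7 and 13.9 to 68.6, 75.3, 35.1 and 38.3 CPM labelled 48 h (log2 fold change 2.16, SE 0.26, adjusted p = 1.52e-04). Dkkl1 went from 0.600, 0.707, 0.394 and 0.532 to 3.70, 6.10, 0.486 and 0.818 CPM labelled 2iL (log2 fold change 2.33, SE 0.73, adjusted p = 0.0241). The enzyme Notum, which removes the lipid of Wnts, went from 3.38, 2.87, 4.62 and 4.13 to 5.48, 7.39, 21.6 and 24.3 CPM (log2 fold change 1.99, SE 0.47, adjusted p = 0.00655). Kremen1 and Notum did not overlap between groups and Dkkl1 did, and Notum, unlike most ligands, was higher in line 2 than in line 1.

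Among genes that act inside the cell most were not called in Mta123KO. Labelled 2iL, 2 of the 8 nuclear factors rose and 1 fell and 0 of the 14 intracellular signalling genes rose and 1 fell, and labelled 48 h 1 of 8 and 1 of 14 rose and 0 fell. Of the 2 genes of receptor turnover 1 rose under each label, and of the R-spondin receptor genes 1 of the 2 tested rose labelled 2iL and 2 of 3 labelled 48 h. Rnf43, which removes Frizzled receptors, went from 0.212, 0.815, 0.551 and 0.513 to 10.9, 11.2, 2.15 and 2.96 CPM labelled 48 h (log2 fold change 3.74, SE 0.65, adjusted p = 0.00130), and the R-spondin receptor gene Lgr5 from 0.0529, 0.289, 0.0719 and 0.140 to 3.38, 6.53, 0.425 and 0.785 CPM (log2 fold change 4.38, SE 0.96, adjusted p = 0.00462). The nuclear factor Bcl9l went from 10.8, 9.39, 10.4 and 10.6 to 47.7, 46.5, 17.4 and 15.01 CPM labelled 2iL (log2 fold change 1.64, SE 0.37, adjusted p = 0.00551). In all 3, line 1 was higher than line 2. The glypican Gpc3 fell from 20.2, 27.6, 18.8 and 21.8 to 1.83, 1.43, 2.04 and 2.50 CPM labelled 2iL (log2 fold change -3.48, SE 0.19, adjusted p = 3.86e-06) and by 3.94 (SE 0.27, adjusted p = 8.38e-06) on the log2 scale labelled 48 h. Celsr3, of planar polarity, fell from 20.6, 18.3, 21.5 and 19.4 to 2.17, 2.04, 5.46 and 4.48 CPM (log2 fold change -2.48, SE 0.30, adjusted p = 1.98e-04), and Lef1, a β-catenin partner, from 116, 93.7, 92.9 and 96.2 to 3.02, 4.01, 27.9 and 23.0 CPM (log2 fold change -2.77, SE 0.65, adjusted p = 0.00658). Axin2, a common target of β-catenin, was not called in Mta123KO, with 0.87 (SE 0.35, adjusted p = 0.0664) labelled 2iL and -0.36 (SE 0.10, adjusted p = 0.0152) labelled 48 h. Axin2 was chosen for mention after its values were seen.

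Across the 8 comparisons 33 of the 42 members were called at least once, 84.6% of the 39 that were tested in any, where 40.1% of all 23812 genes tested in any were called at least once: 16 of 19 ligands, 9 of 10 Frizzled genes, Lrp5, Ror1 and Ror2, and 5 of 8 inhibitors. The 9 never called were Wnt1, Wnt2, Wnt16, Fzd1, Lrp6, Ryk, Frzb, Dkk2 and Dkk3. Of these, Wnt1, Wnt2 and Frzb, at most 0.510 CPM in any library, were below the filter in all 8. Dkk3, a Dkk relative that does not bind Lrp receptors in the manner of Dkk1, stood at 1.70 to 2.93 CPM in Control labelled 2iL. Wnt16 stood at 0.399 to 0.894 CPM there, Fzd1 at 2.06 to 2.84 CPM and Ryk at 51.3 to 54.2 CPM. Dkk2 stood at 0.777 to 2.26 CPM in Mta2 WT and at no more than 0.111 CPM in the triple-mutant set.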

How the data were processed

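RNA was sequenced from Control and Mta123KO mouse ES cells (16 libraries) and from single mutants and their parents (18 libraries). According to the study's methods and processing notes, the authors trimmed reads with Trim Galore, aligned them with TopHat2 to GRCm38/mm10 and counted them per gene with featureCounts. The deposited values are raw counts, 1 file per library, with no normalization. The 2 sets were counted over different gene lists, so tests stayed within a set. Whether counting used strand and how reads of several loci were treated was not given in the sources used here.

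Counts were fitted with edgeR 4.0.16 (R 4.3.3) over all genes of a comparison that passed filterByExpr, with TMM scaling, a quasi-likelihood test and Benjamini-Hochberg adjustment. A gene was called at an adjusted p under 0.05 with an absolute log2 fold change above 1. The SE printed with a log2 fold change was derived from the test, as its absolute value divided by the square root of the F statistic. It is not an error estimated by edgeR. In each of the 8 comparisons only the groups compared were fitted, and the interaction used all 16 libraries. The fits were also run on simulated data. Every library was drawn independently there, so lines and pairs were not covered. The 42 members and all gene lists were chosen with earlier results of these data known. Values per library are given for members called in 1 or more of the comparisons whose higher group averaged 1 CPM or more, members called below that are named with a range where first called, and the remaining ones are counted. For other pathway genes the 3 largest changes in each direction with at least 1 CPM are named in the Mta123KO comparisons. Exact intervals of count ratios and all limits from counts cover counting error only.

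Nothing states that libraries were separate cultures, so p-values measure the spread between libraries, which may be technical. In the triple-mutant set the 4 libraries of a group are 2 of each of 2 lines, and libraries of a line are not independent samples. The main fits nevertheless count each library, and only the fits of summed libraries take the line as the sample. Replicate numbers of the triple-mutant set name a line and a library. The main fits hold no replicate block, also where the numbers were taken to pair the libraries. Deviations from the group means of same-numbered libraries correlated at 0.317 to 0.390 between the culture labels in Control, 0.644 to 0.681 in Mta123KO and 0.590 to 0.717 for Mta1, where the numbers were taken to pair the libraries, and at -0.278 to -0.0221 (labelled 2iL), -0.166 to 0.0344 (labelled 48 h), -0.236 to 0.414 (Mta2) and -0.0594 to 0.362 (Mta3) elsewhere. No pair of libraries of a group agreed within sampling noise. Alternatives were RLE scaling, DESeq2 1.42.0, no filter, no fold threshold, spike-in scaling, 1 fit of all libraries, the replicate block, summed libraries of a line, and leaving out each replicate; leaving out each Mta123KO line and summed libraries with the block were chosen after seeing the data. Promoter windows came from RefSeq (GRCm38.p6). Plots were drawn with matplotlib 3.10.9.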

Additional observations from a re-analysis of the deposited data

Results flagged for a closer look

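Fzd9 in Control labelled 48 h had 1 library apart from the others, replicate 2_2 at 3.10 CPM against 2.45, 2.45 and 2.52 CPM. It was the 1 flag among 101 groups of 4 libraries examined by Dixon's criterion, where chance flags about 1 in 20.

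The Mta123KO change differed between the culture labels for 11 members by the interaction term (edgeR, adjusted p under 0.05 and absolute difference above 1). The difference, labelled 48 h minus labelled 2iL on the log2 scale, was 3.47 for Wnt8a, 3.38 for Sfrp2, 2.28 for Fzd9, 1.92 for Fzd2, 1.51 for Wnt11 and 1.13 for Fzd4. It was -3.61 for Wnt5a, -2.84 for Wnt7b, -1.54 for Fzd10, -1.50 for Ror1 and -1.35 for Sfrp1. Wnt5a held 3 counts over the 4 Mta123KO libraries labelled 48 h. If the culture labels were exchanged, each of these signs would turn.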

How the results depend on the processing

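Over 90 called member results, 1191 alternative values were computed, of which 1075 kept direction and call, 116 kept the direction and lost the call, and 0 reversed. Summing the libraries of each line lost 37 of 77 calls. Members called increased and decreased were then 5 and 4 (Mta123KO labelled 2iL), 9 and 3 (labelled 48 h), 7 and 9 (culture in Control, beside 10.3% and 13.1% of all genes tested), 0 and 0 (culture in Mta123KO) and 3 and 1 (interaction). There 2 sums a group were compared, and the other shares of all genes are given above. With the replicate block the counts were 10 and 4 labelled 2iL (beside 12.4% and 7.21% of all genes tested) and 15 and 4 labelled 48 h (beside 13.5% and 5.65%). They were 9 and 8 for culture in each genotype and 10 and 8 for the interaction, with the shares given above. For the single mutants they were 0 and 0 for Mta1 (0% and 0%), 4 and 6 for Mta2 (5.26% and 5.96%) and 1 and 3 for Mta3 (0.734% and 5.59%). Among called members the block ended 5 calls, Wnt3, Wnt3a, Wnt9a and Fzd10 labelled 2iL and Wnt3a labelled 48 h, and no other. In the comparisons that the numbers do not pair, at most 1 library of Mta2 or Mta3 correlated best with its own number and 0 of Mta123KO with Control.

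Without Mta123KO line 1 the interaction gave 10 and 3 members (beside 7.15% and 5.26% of all genes tested), and without line 2 the decreases labelled 2iL numbered 7 (beside 10.6%). Dropping the fold threshold gave 7 decreases labelled 2iL (beside 24.2% of all genes tested), 7 increases and 11 decreases for Mta2 (beside 23.5% and 24.3%) and 2 increases for Mta3 (beside 8.32%). A single fit of all 18 libraries gave 2 and 3 for Mta2 (beside 3.71% and 4.03% of all genes tested) and 2 increases for Mta3 (beside 1.06%), and no filter on low counts gave 3 increases for Mta3 (beside 0.889%). The cause was not tested. DESeq2 and RLE scaling kept all 90 calls. Spike-in scaling moved the median log2 change of all genes to -0.18 (Mta123KO labelled 48 h), 0.18 (culture in Control) and -0.22 (interaction) and kept 74 of 77 calls.

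Shares over all genes were not computed for the fits that left out a replicate. Leaving out each replicate in turn gave 11 to 15 increases and 4 to 5 decreases labelled 2iL, 15 to 16 and 3 to 5 labelled 48 h, 8 to 9 and 7 to 9 for culture in Control, 5 to 6 and 5 to 6 for culture in Mta123KO, 4 to 5 and 1 to 3 for the interaction, 0 and 0 for Mta1, 3 to 5 and 5 for Mta2, and 0 to 3 and 0 to 3 for Mta3. Calls lost this way follow, with the log2 change where it fell to the threshold and otherwise the adjusted p (edgeR). For Mta123KO labelled 2iL these were Wnt2b (0.99), Wnt9a (edgeR adjusted p = 0.176) and Fzd10 (edgeR adjusted p = 0.0821) without replicate 1_1, Wnt3a (edgeR adjusted p = 0.0579), Wnt9a (edgeR adjusted p = 0.106) and Fzd10 (edgeR adjusted p = 0.0854) without replicate 1_2, Wnt9a (edgeR adjusted p = 0.0543) without replicate 2_1. For Mta123KO labelled 48 h these were Wnt3a (edgeR adjusted p = 0.136), Wnt4 (edgeR adjusted p = 0.0557) and Sfrp1 (-0.95) without replicate 1_1, Wnt3a (edgeR adjusted p = 0.116) and Sfrp1 (-0.98) without replicate 1_2, Lrp5 (-0.99) without replicate 2_2. For culture in Control these were Sfrp5 (edgeR adjusted p = 0.0589) without replicate 2_1, Sfrp5 (edgeR adjusted p = 0.0888) without replicate 2_2. For culture in Mta123KO these were Wnt8b (edgeR adjusted p = 0.0873) without replicate 1_1, Wnt8a (edgeR adjusted p = 0.0564) without replicate 1_2, Fzd5 (edgeR adjusted p = 0.0535) without replicate 2_1, Wnt8b (edgeR adjusted p = 0.0547) and Fzd5 (edgeR adjusted p = 0.0759) without replicate 2_2. For the interaction these were Wnt5a (edgeR adjusted p = 0.372), Wnt7b (edgeR adjusted p = 0.0897), Wnt11 (edgeR adjusted p = 0.0546), Fzd4 (edgeR adjusted p = 0.0663), Fzd10 (edgeR adjusted p = 0.122) and Ror1 (edgeR adjusted p = 0.0529) without replicate 1_1, Wnt5a (edgeR adjusted p = 0.125), Wnt11 (edgeR adjusted p = 0.0868) and Fzd10 (edgeR adjusted p = 0.144) without replicate 1_2, Wnt7b (edgeR adjusted p = 0.0861), Wnt11 (edgeR adjusted p = 0.168), Fzd4 (edgeR adjusted p = 0.113) and Ror1 (edgeR adjusted p = 0.0917) without replicate 2_1, Wnt5a (edgeR adjusted p = 0.106), Wnt7b (edgeR adjusted p = 0.0543), Wnt11 (edgeR adjusted p = 0.123) and Fzd4 (edgeR adjusted p = 0.0732) without replicate 2_2. For Mta2 these were Wnt6 (edgeR adjusted p = 0.0537) without replicate 1, Wnt3 (0.81) without replicate 2, Wnt6 (edgeR adjusted p = 0.0766) without replicate 3. For Mta3 these were Wnt9a (edgeR adjusted p = 0.178), Fzd10 (edgeR adjusted p = 0.153), Sfrp4 (edgeR adjusted p = 0.146) and Sfrp5 (edgeR adjusted p = 0.129) without replicate 1, Wnt9a (edgeR adjusted p = 0.135), Fzd10 (edgeR adjusted p = 0.173), Sfrp4 (edgeR adjusted p = 0.111) and Sfrp5 (edgeR adjusted p = 0.142) without replicate 3.

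Precision was limited by low counts: 7 members averaged under 1 CPM in every group.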
